A study of Rattus norvegicus with 6 samples.

Results

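The genes described here encode the machinery that takes up glucose and breaks it down, stores and releases glycogen, exchanges lactate and runs the pentose phosphate pathway. They were chosen by symbol from a list of 37 genes, all of which were found among the 30001 features of the expression table. RNA sequencing had been carried out on 6 libraries of neonatal rat ventricular myocytes (NRVMs), primary heart muscle cells of Sprague-Dawley rats taken within 3 days of birth. In 3 libraries the cells carried a short hairpin RNA against Decr1, and the other 3 were controls given a non-targeting reagent. The Decr1 product, a dienoyl-CoA reductase of mitochondria, assists in the oxidation of unsaturated fatty acids. Not given in the sources used here are the hairpin's vector, dose and duration and the number of animals behind each library. In both groups the cells had been isolated with a cardiomyocyte kit, parted from cells that attach early and grown in medium with serum, which need not remove all other heart cells.

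Glycolysis splits glucose into pyruvate through a preparatory stage, which spends ATP, and a payoff stage, which yields it. Pyruvate can enter the mitochondria or be turned into lactate, which leaves or enters the cell through monocarboxylate transporters. Glucose can also be stored as glycogen or routed into the pentose phosphate pathway, which makes NADPH and ribose phosphate. Newborn and fetal heart muscle relies on glucose and lactate more than adult heart muscle, which mainly burns fatty acids. Many of the enzymes exist as isoforms from separate genes, with muscle, brain, liver or ubiquitous forms.

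Expression is given in FPKM, which sets the fragments on a gene relative to its length and to the depth of the library, so levels can be compared between genes. The libraries held 35290664 to 37413240 fragments in the knockdown and 39659092 to 40108670 fragments in the controls, and 3 reads on a gene of 1 kb stood for 0.0748 to 0.0850 FPKM. Each log2 fold change is the knockdown mean minus the control mean of log2(FPKM + 1); differences of low genes come out too small on that scale. A gene passed the test at an adjusted p under 0.05 (limma, with Benjamini-Hochberg adjustment over the 11975 features that averaged 1 FPKM or more). Whether the 3 libraries of a group stem from different cultures or animals is not stated in the labels, so the p-values reflect the spread among these libraries alone, which may be technical. All 6 libraries carry batch number 1.

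Decr1, the targeted gene, had 3.33, 1.24 and 2.36 FPKM in the knockdown libraries, against 43.6, 44.3 and 42.8 FPKM in the control libraries. The log2 fold change was -3.80 (SE 0.19, adjusted p = 3.23e-08 by limma), and 5.30% of the control level was left. Most of the transcriptome differed along with it: 80.8% of the features tested passed, 48.4% higher and 32.4% lower in the knockdown. After median-ratio scaling between libraries the split was 38.8% higher and 41.0% lower, and the median over all features of the log2 fold change was then -0.02, against 0.14 on the deposited scale. The markers of other heart cells moved as well. All 15 fibroblast markers fell (median log2 fold change -3.31), and their summed level was 645 to 742 FPKM in the knockdown and 7690.1 to 8561 FPKM in the controls. The 5 epicardial markers tested also fell, with sums of 4.33 to 4.61 FPKM in the knockdown and 159.6 to 175 FPKM in the controls, and Krt19 was at 0 in knockdown replicates 2 and 3. Of 12 cardiomyocyte markers 5 rose and 7 fell, and their sum was 13098 to 13997 FPKM in the knockdown and 18713 to 19344 FPKM in the controls. That sum leans on Nppa, the most abundant of them, which averaged 5010 FPKM in the knockdown and 11702 FPKM in the controls. Actc1, the next most abundant, rose, with 4338 FPKM in the knockdown and 2963 FPKM in the controls. The others that rose were Tnnt2, Tnni3, Actn2 and Myl3. Sums were 72.6 to 79.1 FPKM in the knockdown and 151 to 181 FPKM in the controls for endothelial markers (1 of 6 rose and 4 fell), 4611 to 5025 FPKM in the knockdown and 2880.4 to 3153 FPKM in the controls for smooth muscle and pericyte markers (3 of 9 rose and 5 fell), and 358 to 421 FPKM in the knockdown and 577 to 640.2 FPKM in the controls for macrophage and leukocyte markers (5 of 8 fell), with Cd163 at 0 in knockdown replicate 2. Most of the endothelial sum was Eng, which averaged 62.7 FPKM in the knockdown and 155.7 FPKM in the controls. Most of the smooth muscle and pericyte sum was Acta2, which averaged 3481 FPKM in the knockdown and 1672 FPKM in the controls. Tagln, the next most abundant of that list, did not pass. Both Schwann and neuronal markers tested fell, with sums of 9.11 to 9.83 FPKM in the knockdown and 42.6 to 45.6 FPKM in the controls. The erythroid list had 0 genes above the filter and sums under 1 FPKM, with Alas2 at 0 in every knockdown library. In such bulk libraries fewer cells of a type and less RNA per cell cannot be told apart. The part of these marker changes in the results below was not tested.

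Most of the genes of glucose use rose in the knockdown. Of the 37 genes, 36 passed the filter on low values; Pfkfb1 was below it. Of those 36, 25 rose (69.4%), 10 fell (27.8%) and 1, Pgam2, did not pass, a call rate of 97.2% beside the background of 80.8% for all features. The share that rose compares with 48.4% of all features, and the share that fell with 32.4%. Their median log2 fold change was 0.64, beside 0.14 for all features tested. Single values ran from -1.28 for Pygl to 2.53 for Gbe1. After median-ratio scaling, which called 79.8% of all features, 21 of the 36 rose, 11 fell and 4 (Gpi, Pfkl, Pgk1 and Pkm) did not pass, with a median of 0.45; of all features 38.8% were then higher and 41.0% lower. After quantile normalization, which also called 79.8% of all features, 24 of the 36 rose, 10 fell and 2 did not pass; of all features 41.7% were then higher and 38.1% lower. In 33 of the 36 genes the knockdown and control libraries did not overlap, beside 82.3% of all features (49.2% with the knockdown above the controls); the exceptions were Pkm, Pgam2 and Slc16a1. Rises of at least 1 on the log2 scale were seen in 8 genes and a fall of that size in 1, beside 10.9% and 8.0% of all features. The summed level of the 37 genes was 9946, 9546 and 9909 FPKM in the knockdown libraries, against 5851, 6203 and 6324 FPKM in the control libraries. This sum made up 2.08% to 2.18% of all FPKM in the knockdown libraries and 1.31% to 1.42% in the control libraries.

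**Figure D1:**
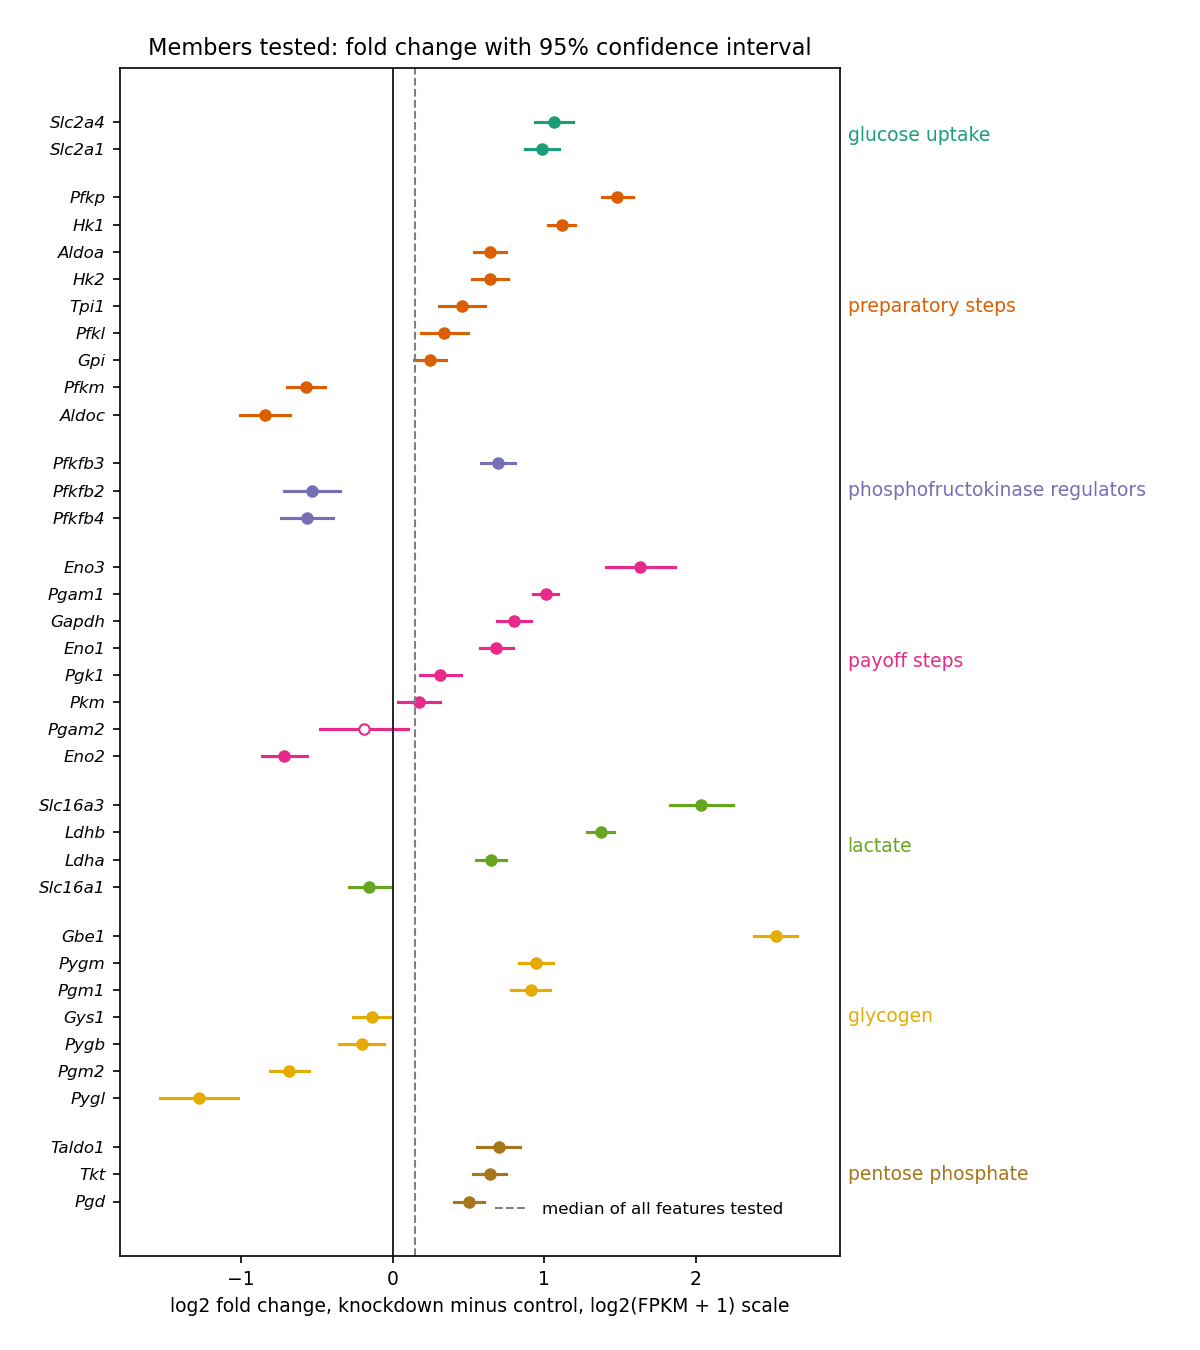
Log2 fold change (knockdown minus control, log2(FPKM + 1)) of the 36 genes tested, grouped by role; points are the estimates, bars the 95% confidence intervals, filled points have an adjusted p under 0.05 by limma, and the dashed line is the median of all features (0.14). Of the 36 genes, 25 lie on the higher side with a filled point and 10 on the lower side, with Gbe1 and Slc16a3 farthest to the right and Pygl farthest to the left.

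Many glycolytic genes are known targets of hypoxia-inducible factor (HIF), a transcription factor that binds hypoxia response elements with the core ACGTG or GCGTG. Promoters of 300 bases, from 250 before to 50 after the transcription start, were read from RefSeq (GRCr8) for 35 of the 37 genes. On either strand, ACGTG was present in 19 of the 35 (54.3%), beside 20.9% of 27457 genes with a promoter. GCGTG was present in 15 (42.9%), beside 32.4% of all genes, and the E-box CACGTG, which holds ACGTG on both strands, in 3 (8.57%), beside 7.08%. Either core was present in 24 of the 35 (68.6%), beside 44.6% of all genes. It stood in 16 of the 23 genes that rose and have a promoter entry (69.6%) and in 8 of the 10 that fell (80.0%). The promoters of the genes with the largest rises and falls are shown, together with that of Ldha, the gene of lactate dehydrogenase A, a classical HIF target. Capitals mark ACGTG or GCGTG on either strand. A match describes letters in this window and is not a measured binding site.
Gbe1, chr11:22181026-22181325, plus strand: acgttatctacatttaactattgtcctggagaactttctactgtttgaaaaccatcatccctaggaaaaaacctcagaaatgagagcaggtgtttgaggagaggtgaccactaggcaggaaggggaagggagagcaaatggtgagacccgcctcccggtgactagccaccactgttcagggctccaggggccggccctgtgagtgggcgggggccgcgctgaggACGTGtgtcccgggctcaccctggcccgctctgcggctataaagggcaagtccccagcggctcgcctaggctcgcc
Slc16a3, chr10:106712078-106712377, plus strand: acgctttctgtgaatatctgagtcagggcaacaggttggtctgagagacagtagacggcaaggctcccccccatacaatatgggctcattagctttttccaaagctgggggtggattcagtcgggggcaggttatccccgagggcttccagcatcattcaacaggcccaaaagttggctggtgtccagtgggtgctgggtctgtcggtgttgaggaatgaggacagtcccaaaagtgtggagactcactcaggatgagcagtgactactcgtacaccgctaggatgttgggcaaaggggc
Pygl, chr6:94476170-94476469, minus strand: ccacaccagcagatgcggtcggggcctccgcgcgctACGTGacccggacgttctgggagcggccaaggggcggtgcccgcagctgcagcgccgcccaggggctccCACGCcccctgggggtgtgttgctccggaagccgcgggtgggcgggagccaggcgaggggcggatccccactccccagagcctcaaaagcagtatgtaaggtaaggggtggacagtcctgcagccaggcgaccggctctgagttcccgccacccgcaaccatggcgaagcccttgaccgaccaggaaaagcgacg
Aldoc, chr10:63715294-63715593, plus strand: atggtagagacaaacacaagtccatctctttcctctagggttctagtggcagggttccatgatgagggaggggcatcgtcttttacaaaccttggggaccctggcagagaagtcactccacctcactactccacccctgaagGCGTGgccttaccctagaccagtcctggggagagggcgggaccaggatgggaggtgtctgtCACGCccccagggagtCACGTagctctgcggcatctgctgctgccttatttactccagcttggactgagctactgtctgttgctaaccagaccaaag
Ldha, chr1:106507842-106508141, plus strand: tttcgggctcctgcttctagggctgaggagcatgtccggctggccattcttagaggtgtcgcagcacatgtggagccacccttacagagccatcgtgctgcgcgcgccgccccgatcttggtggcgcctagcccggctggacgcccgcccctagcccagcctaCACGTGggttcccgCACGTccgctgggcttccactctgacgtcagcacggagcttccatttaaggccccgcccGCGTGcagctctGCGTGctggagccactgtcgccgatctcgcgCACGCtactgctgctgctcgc
The Ldha promoter held 6 matches, the Aldoc promoter 3, the Pygl promoter 2 and the Gbe1 promoter 1, while that of Slc16a3 held 0.

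Both glucose transporters rose. Slc2a1, which encodes GLUT1, the transporter of basal glucose uptake, had 75.3, 70.0 and 71.6 FPKM in the knockdown libraries, against 34.2, 36.4 and 37.6 FPKM in the control libraries. Slc2a4, which encodes GLUT4, the insulin-responsive transporter of muscle and fat, had 16.5, 16.0 and 16.6 FPKM in the knockdown libraries, against 7.02, 7.30 and 7.66 FPKM in the control libraries. All knockdown values lay above all control values for both genes, as in 49.2% of all features tested. The log2 fold changes were 0.99 (SE 0.05, adjusted p = 4.69e-08) for Slc2a1 and 1.06 (SE 0.06, adjusted p = 5.24e-08) for Slc2a4. The Slc2a1 level stood above the Slc2a4 level in all 6 libraries.

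Of the 9 genes of the preparatory steps, 7 rose and Pfkm and Aldoc fell; after median-ratio scaling Gpi and Pfkl no longer passed. The hexokinases phosphorylate glucose and so trap it in the cell. Hk1, the form expressed in most tissues, had 162, 155 and 160.3 FPKM in the knockdown libraries, against 73.5, 71.5 and 74.3 FPKM in the control libraries, a log2 fold change of 1.11 (SE 0.04, adjusted p = 3.95e-09). Hk2, the insulin-regulated form of muscle, had 25.8, 24.6 and 25.3 FPKM in the knockdown libraries, against 15.3, 15.4 and 16.8 FPKM in the control libraries, a log2 fold change of 0.64 (SE 0.05, adjusted p = 1.63e-06). Neither gene's groups overlapped, as in 82.3% of all features tested, and Hk1 was the more abundant form in both groups.

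Phosphofructokinase commits sugar to glycolysis, and its 3 subunit genes moved in different directions. Pfkp, the platelet form, had 111, 109 and 115 FPKM in the knockdown libraries, against 37.9, 41.1 and 38.9 FPKM in the control libraries. It was 2.84-fold higher in mean FPKM, with a log2 fold change of 1.48 (SE 0.05, adjusted p = 1.61e-09). Pfkm, the muscle form, had 18.1, 17.5 and 19.8 FPKM in the knockdown libraries, against 27.6, 27.9 and 28.5 FPKM in the control libraries. Every knockdown library was below every control library, and the log2 fold change was -0.57 (SE 0.06, adjusted p = 5.01e-06). Pfkl, the liver form, averaged 57.4 ± 1.502 FPKM in the knockdown and 45.3 ± 4.62 FPKM in the controls (SD, n = 3 each), a log2 fold change of 0.34. For Pfkl it was 0.16 after median-ratio scaling, which did not pass, and 0.22 after quantile normalization, which did. In RefSeq, Pfkm overlaps the protein-coding gene Senp1, and without a stated strand setting their reads cannot be told apart.

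Aldolase cleaves the sugar bisphosphate made by phosphofructokinase. Aldoa, the muscle form and the most abundant gene of the preparatory steps, had 1159.7, 1095 and 1094 FPKM in the knockdown libraries, against 682, 725 and 739 FPKM in the control libraries, a log2 fold change of 0.64 (SE 0.05, adjusted p = 5.11e-07). Aldoc, the brain form, had 7.36, 6.27 and 6.95 FPKM in the knockdown libraries, against 12.0, 13.5 and 13.8 FPKM in the control libraries, and its log2 fold change was -0.84 (SE 0.07, adjusted p = 2.41e-06). The groups of both genes stood apart, as in 82.3% of all features tested, in opposite directions. The remaining genes of this stage are the isomerases Gpi and Tpi1. Gpi averaged 219 ± 6.54 FPKM in the knockdown and 185 ± 8.98 FPKM in the controls and Tpi1 333 ± 7.92 FPKM in the knockdown and 243 ± 24.7 FPKM in the controls (SD, n = 3 each), with log2 fold changes of 0.24 and 0.46. After median-ratio scaling these were 0.058 for Gpi and 0.27 for Tpi1, and Gpi was at 0.0092 after quantile normalization.

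The Pfkfb genes encode bifunctional enzymes that make and remove the strongest allosteric activator of phosphofructokinase. Of the 3 tested, 1 rose and 2 fell. Pfkfb3, the form with the highest ratio of kinase to phosphatase activity, had 16.4, 16.3 and 15.7 FPKM in the knockdown libraries, against 9.54, 9.70 and 9.54 FPKM in the control libraries, a log2 fold change of 0.69 (SE 0.05, adjusted p = 6.24e-07). Pfkfb2, the form first described in heart, had 2.38, 2.81 and 2.87 FPKM in the knockdown libraries, against 4.53, 4.54 and 3.92 FPKM in the control libraries, a log2 fold change of -0.53 (SE 0.08, adjusted p = 0.000185). Pfkfb4, first described in testis, had 1.64, 1.62 and 1.72 FPKM in the knockdown libraries, against 2.65, 3.10 and 3.08 FPKM in the control libraries, a log2 fold change of -0.57 (SE 0.08, adjusted p = 6.34e-05). In each of these 3 genes the groups did not overlap, as in 82.3% of all features tested. Pfkfb1, the liver and muscle form, was below the filter with 1.55, 1.58 and 1.35 FPKM in the knockdown libraries, against 0.243, 0.226 and 0.198 FPKM in the control libraries. Those values rest on 460, 469 and 379 reads in the knockdown libraries and 77, 71 and 63 reads in the control libraries. With no filter, the fit gave Pfkfb1 a log2 fold change of 1.03 (adjusted p = 1.89e-05 by limma).

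In the payoff steps 6 of 8 genes rose, Eno2 fell and Pgam2 did not pass; after median-ratio scaling Pgk1 and Pkm no longer passed and Pgam2 fell. Gapdh, which makes the first high-energy intermediate of this stage and often serves as a reference gene, was the most abundant of the 37 genes in every library. It had 2079, 1975 and 2115 FPKM in the knockdown libraries, against 1110.1, 1205 and 1225 FPKM in the control libraries, a 1.74-fold difference of means with a log2 fold change of 0.80 (SE 0.05, adjusted p = 1.90e-07). Pgam1, the widely expressed phosphoglycerate mutase, had 822, 799 and 802 FPKM in the knockdown libraries, against 406, 396 and 402 FPKM in the control libraries, a log2 fold change of 1.01 (SE 0.04, adjusted p = 4.61e-09). For both genes the groups lay far apart relative to the spread within them. Pgam2, the muscle form, had 1.69, 2.44 and 2.33 FPKM in the knockdown libraries, against 2.85, 1.98 and 3.00 FPKM in the control libraries. Its groups overlapped, the 95% confidence interval of the log2 fold change was -0.48 to 0.10 (adjusted p = 0.198), and it passed without control replicate 2 (-0.32, adjusted p = 0.0284) and after median-ratio scaling (-0.32, adjusted p = 0.0435). Pgk1, a kinase that forms ATP in this stage, averaged 438 ± 15.7 FPKM in the knockdown and 353 ± 28.9 FPKM in the controls (SD, n = 3 each), a log2 fold change of 0.31 that was 0.13 after median-ratio scaling.

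The enolases, which make phosphoenolpyruvate, differed by isoform. Eno1, the ubiquitous form, had 1148, 1088 and 1105 FPKM in the knockdown libraries, against 656, 698 and 729.6 FPKM in the control libraries, a log2 fold change of 0.68 (SE 0.05, adjusted p = 4.78e-07). Eno3, the muscle form, had 33.8, 32.8 and 32.1 FPKM in the knockdown libraries, against 11.0, 8.01 and 11.1 FPKM in the control libraries, a 3.28-fold higher mean with a log2 fold change of 1.63 (SE 0.10, adjusted p = 1.80e-07). Eno2, the neuronal form, had 27.0, 28.0 and 23.3 FPKM in the knockdown libraries, against 42.9, 44.4 and 42.8 FPKM in the control libraries, a log2 fold change of -0.72 (SE 0.07, adjusted p = 3.53e-06). The groups did not overlap in any of the enolase genes, as in 82.3% of all features tested. Eno3 overlaps the protein-coding gene Spag7 in RefSeq.

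Pkm, which encodes the pyruvate kinase of muscle and most other tissues, had 539.7, 494 and 585 FPKM in the knockdown libraries, against 466, 466 and 501 FPKM in the control libraries. Knockdown replicate 2 lay below control replicate 3, so the groups overlapped. The log2 fold change of 0.17 (SE 0.06, adjusted p = 0.0263) lay close to the median of all features, and it became -0.01 (adjusted p = 0.861) after median-ratio scaling and 0.37 (adjusted p = 0.000121) after quantile normalization. It also did not pass without knockdown replicate 1, knockdown replicate 3, control replicate 1 or control replicate 2.

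Of the 4 genes that make or move lactate, 3 rose and Slc16a1 fell. Ldha, the lactate dehydrogenase subunit that predominates in glycolytic tissue, had 1034, 989 and 1037 FPKM in the knockdown libraries, against 626, 654 and 673 FPKM in the control libraries. Ldhb, the subunit that predominates in adult heart, had 519, 499 and 493 FPKM in the knockdown libraries, against 195, 189 and 199 FPKM in the control libraries. Ldhb differed more, with a log2 fold change of 1.37 (SE 0.04, adjusted p = 1.03e-09), beside 0.65 (SE 0.04, adjusted p = 3.11e-07) for Ldha; the difference between them passed its own test (log2 ratio of Ldhb to Ldha 0.72, SE 0.06, adjusted p = 3.72e-06). Slc16a3, which encodes MCT4, the lactate exporter of glycolytic cells, had 92.7, 98.7 and 89.5 FPKM in the knockdown libraries, against 18.6, 22.5 and 25.5 FPKM in the control libraries. This was a 4.21-fold difference of means and a log2 fold change of 2.04 (SE 0.09, adjusted p = 2.15e-08), rank 218 from the top among 11975 features. Slc16a1, which encodes MCT1, the lactate transporter of heart and other oxidative tissue, had 35.1, 36.7 and 37.7 FPKM in the knockdown libraries, against 41.5, 43.4 and 37.5 FPKM in the control libraries. Its lowest control value lay below its highest knockdown value. The log2 fold change of -0.15 (SE 0.06, adjusted p = 0.0345) did not pass without knockdown replicate 1, knockdown replicate 2, control replicate 1 or control replicate 2. For Slc16a1 it was -0.34 (adjusted p = 0.000414) after median-ratio scaling and -0.29 (adjusted p = 0.00113) after quantile normalization. Slc16a3 overlaps the protein-coding gene Csnk1d in RefSeq.

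Among the 7 glycogen genes 3 rose and 4 fell, and on the log2(FPKM + 1) scale they held both the largest rise and the largest fall of the 36 genes tested. Gbe1, the branching enzyme that introduces the side chains of glycogen, had 54.4, 53.2 and 56.8 FPKM in the knockdown libraries, against 8.03, 9.53 and 8.56 FPKM in the control libraries. The mean was 6.30-fold higher in the knockdown, the log2 fold change was 2.53 (SE 0.06, adjusted p = 3.71e-10), and the gene ranked 111 from the top among 11975 features. Its values rest on 7444, 7289 and 7339 reads in the knockdown libraries and 1175, 1383 and 1257 reads in the control libraries. Pgm1, the main phosphoglucomutase, which links glycogen to glycolysis, had 82.5, 85.2 and 85.8 FPKM in the knockdown libraries, against 41.6, 48.5 and 43.9 FPKM in the control libraries, a log2 fold change of 0.91 (SE 0.06, adjusted p = 2.01e-07). Pgm2, a related enzyme that acts mainly on pentose phosphates, had 15.0, 16.1 and 15.1 FPKM in the knockdown libraries, against 26.8, 25.5 and 23.8 FPKM in the control libraries, a log2 fold change of -0.68 (SE 0.06, adjusted p = 1.80e-06). In all 7 glycogen genes the groups did not overlap, as in 82.3% of all features tested. Gys1, the glycogen synthase of muscle, had 22.7, 20.8 and 22.3 FPKM in the knockdown libraries, against 23.2, 24.5 and 25.2 FPKM in the control libraries. The log2 fold change of -0.14 (SE 0.05, adjusted p = 0.0373) did not pass without knockdown replicate 2, knockdown replicate 3, control replicate 2 or control replicate 3. It was -0.32 (adjusted p = 0.000477) after median-ratio scaling and -0.31 (adjusted p = 0.00046) after quantile normalization.

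The glycogen phosphorylases release glucose phosphate from glycogen and again moved by isoform. Pygm, the muscle form, had 93.3, 95.3 and 103 FPKM in the knockdown libraries, against 51.2, 49.6 and 49.3 FPKM in the control libraries, a log2 fold change of 0.94 (SE 0.05, adjusted p = 4.93e-08). Pygb, the brain form, had 31.3, 28.4 and 33.3 FPKM in the knockdown libraries, against 37.7, 33.8 and 36.1 FPKM in the control libraries, a log2 fold change of -0.21 (SE 0.07, adjusted p = 0.0147) that did not pass without knockdown replicate 2 or without control replicate 1. For Pygb it was -0.39 (adjusted p = 0.000389) after median-ratio scaling and -0.36 (adjusted p = 0.000829) after quantile normalization. Pygl, the liver form, had 3.69, 3.93 and 4.79 FPKM in the knockdown libraries, against 9.83, 13.6 and 11.1 FPKM in the control libraries. It was 2.78-fold lower in mean FPKM, a log2 fold change of -1.28 (SE 0.11, adjusted p = 2.71e-06), and ranked 629 from the bottom among 11975 features.

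All 3 pentose phosphate genes rose. Pgd, which makes NADPH in the oxidative arm, averaged 240.0 ± 7.77 FPKM in the knockdown and 169 ± 6.42 FPKM in the controls. Tkt and Taldo1 encode transketolase and transaldolase, which shuttle carbon between pentose phosphates and glycolysis in the other arm. Tkt averaged 256 ± 9.90 FPKM in the knockdown and 164 ± 8.20 FPKM in the controls, and Taldo1 166 ± 6.84 FPKM in the knockdown and 102 ± 8.82 FPKM in the controls (SD, n = 3 each for the 3 genes). In all 3 the groups did not overlap, as in 82.3% of all features tested. The log2 fold changes lay between 0.50 and 0.70, with the largest adjusted p at 2.63e-06 by limma. That of Pgd was 0.32 after median-ratio scaling, and quantile normalization gave 0.28.

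**Figure D2:**
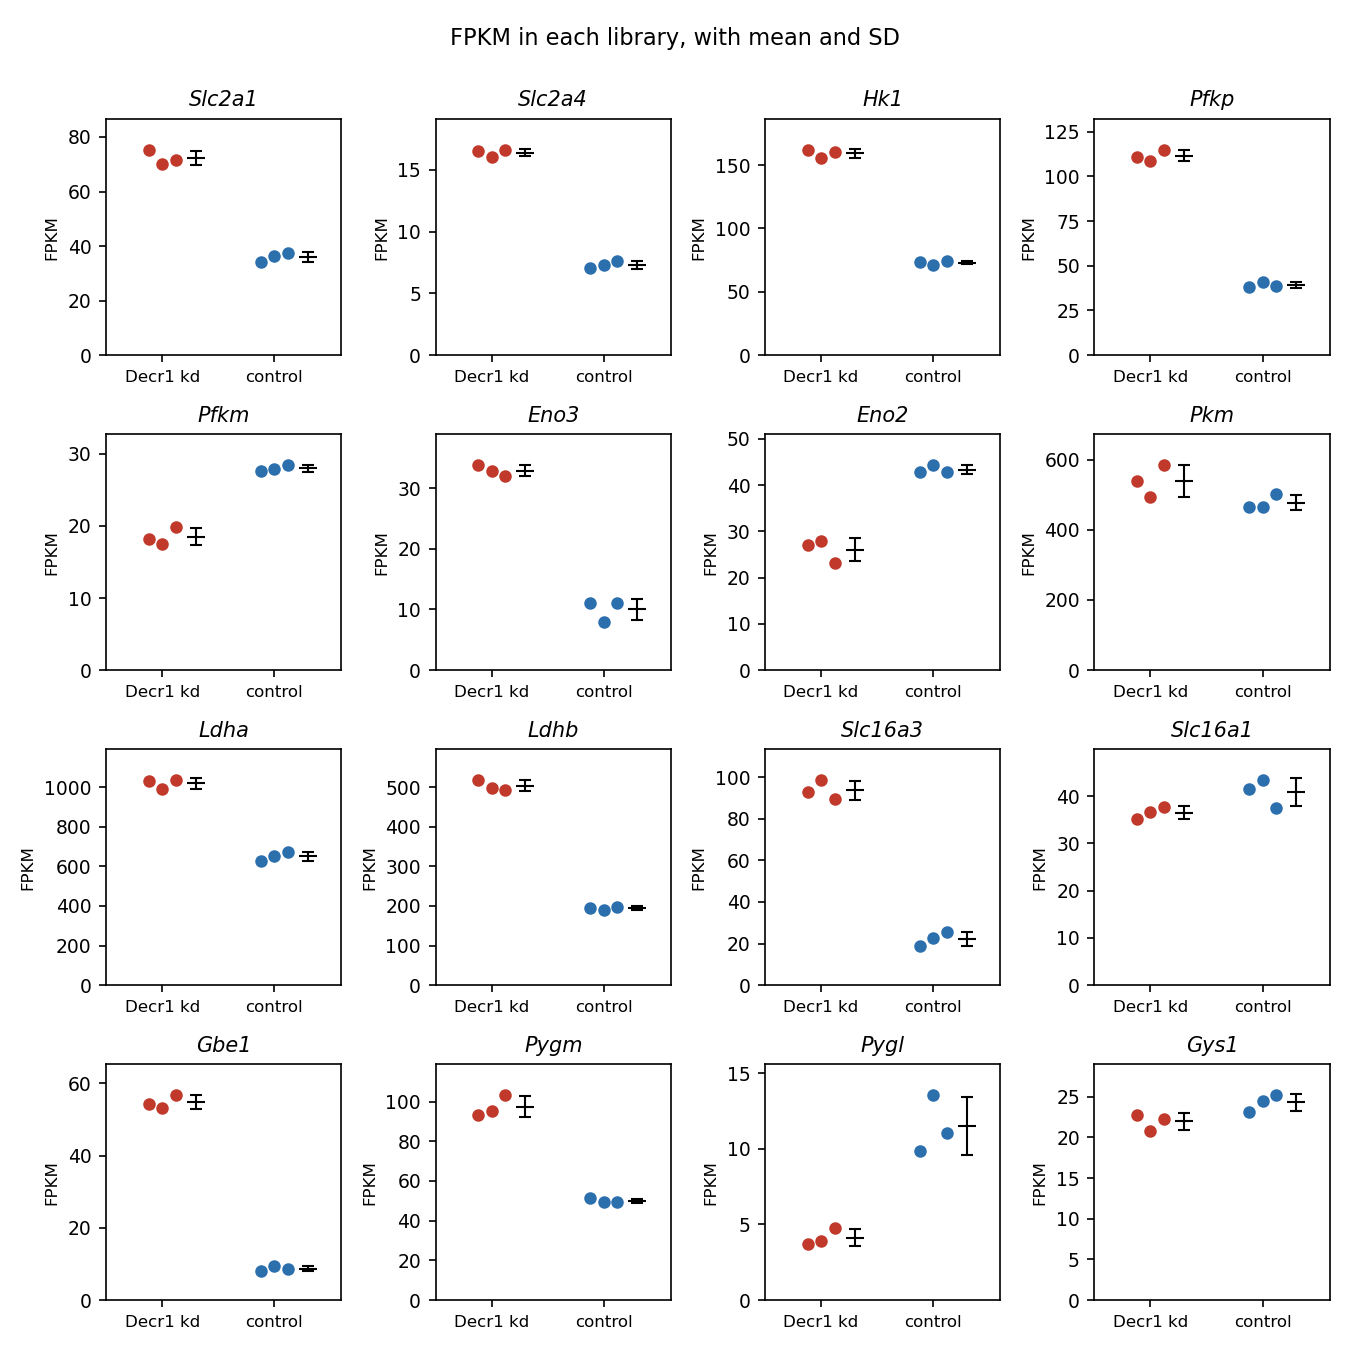
FPKM of 16 of the genes in each library, knockdown left and control right; points are libraries, black marks the mean and SD of 3, and each vertical axis starts at 0. Gbe1, Slc16a3, Pfkp, Ldhb and Eno3 stand higher in all knockdown libraries, Pfkm, Eno2 and Pygl stand lower in all of them, and the groups of Pkm and of Slc16a1 overlap.

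Because FPKM is scaled to gene length, the isoforms of one enzyme can be added up, and their shares do not depend on the scaling between libraries. Shares were computed for 27 genes in 11 families, each made up only of genes from the list of 37. All 27 shares stood apart between the groups, each with a two-sided exact permutation p of 0.1, which is the smallest that 3 against 3 libraries allow and so cannot reach 0.05; adjusted over the families it was also 0.1. Separation was common in these libraries, since the groups did not overlap in 82.3% of all single features tested. No shares were computed for genes outside these families. Within families of a pair of genes the shares mirror each other. The phosphoglucomutase family pairs Pgm1 with Pgm2, which acts mainly on pentose phosphates. Its shares and total therefore do not describe isoforms of the same enzyme. The log2 ratios of family members form 16 distinct pairs, of which 15 passed in limma, beside 80.8% of all single features. The exception was the pair Slc2a1 and Slc2a4 (adjusted p = 0.193 by limma).

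Pfkp made up 59.2, 58.9 and 60.3% in the knockdown libraries, against 35.9, 35.1 and 33.8% in the control libraries, of the phosphofructokinase transcripts. Pfkm made up 9.70, 9.49 and 10.4% in the knockdown libraries, against 26.2, 23.8 and 24.7% in the control libraries. The platelet form was thus the most abundant in the knockdown, while Pfkl held the largest mean share in the controls, with 30.6% ± 1.24 in the knockdown and 40.2% ± 1.96 in the controls (SD, n = 3 each). The muscle form Pygm made up 72.8, 74.7 and 73.1% in the knockdown libraries, against 51.9, 51.1 and 51.1% in the control libraries, of the phosphorylase transcripts, and the liver form Pygl 3.11% ± 0.255 in the knockdown and 11.8% ± 2.04 in the controls (SD, n = 3 each). Slc16a3 made up 72.5, 72.9 and 70.4% in the knockdown libraries, against 31.0, 34.2 and 40.4% in the control libraries, of the lactate transporter transcripts, so MCT4 was the more abundant of the pair in the knockdown and MCT1 in the controls. Pgm1 held 84.6% ± 0.453 in the knockdown and 63.7% ± 2.56 in the controls, Ldhb 33.1% ± 0.724 in the knockdown and 23.0% ± 0.663 in the controls and Pfkfb3 73.4% ± 1.09 in the knockdown and 56.2% ± 0.896 in the controls (SD, n = 3 each). Among enolases Eno1 dominated both groups, with 94.97% ± 0.260 in the knockdown and 92.9% ± 0.390 in the controls, while Eno3 held 2.80% ± 0.0450 in the knockdown and 1.34% ± 0.248 in the controls and Eno2 2.22% ± 0.215 in the knockdown and 5.80% ± 0.308 in the controls (SD, n = 3 each). The Hk1 share was 86.3% ± 0.0378 in the knockdown and 82.2% ± 0.597 in the controls (SD, n = 3 each). That of Slc2a4 was 18.5% ± 0.454 in the knockdown and 16.9% ± 0.170 in the controls (SD, n = 3 each). Within these pairs both differences were small. Hk3, another hexokinase gene, and Slc2a3 were left out of these shares. Hk3 averaged 16.1 FPKM in the knockdown and 17.4 FPKM in the controls. Slc2a3 averaged 4.70 FPKM in the knockdown and 12.6 FPKM in the controls.

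**Figure D3:**
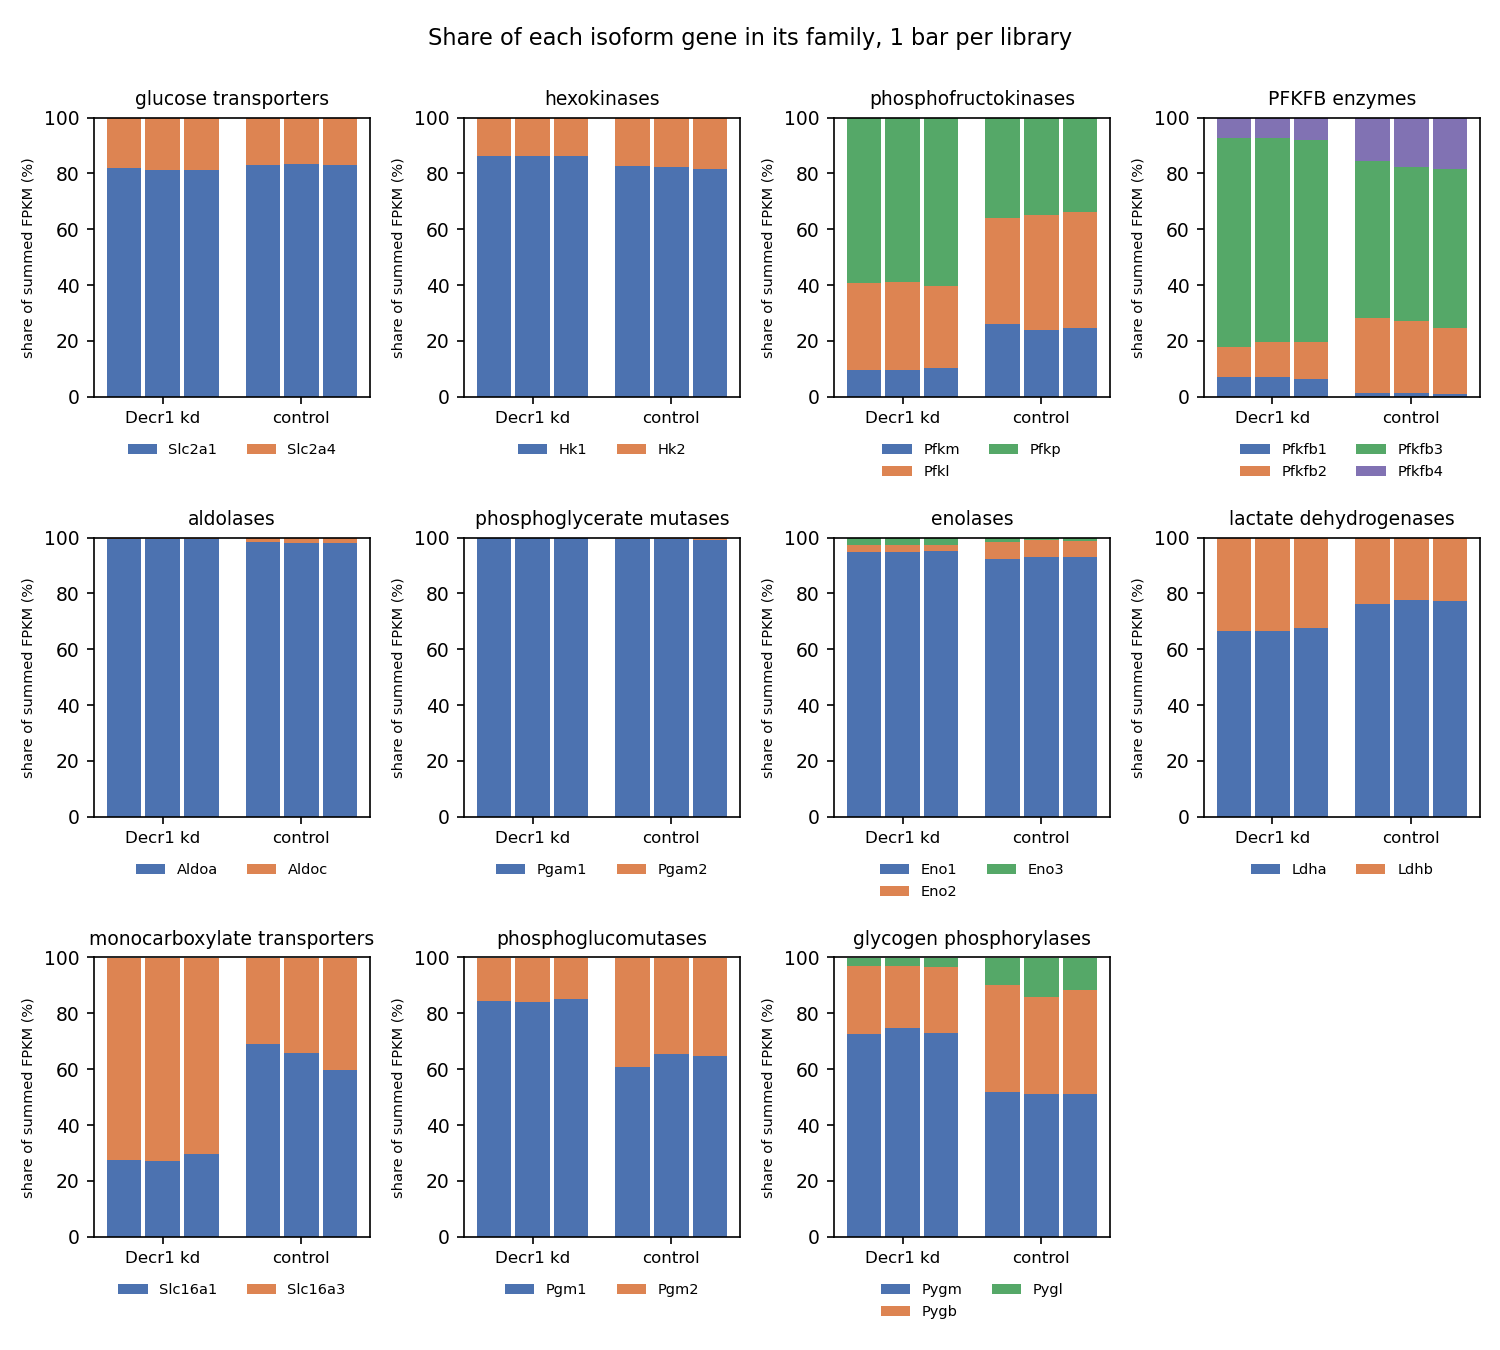
Share of each gene in the summed FPKM of its enzyme family, in percent, 1 stacked bar per library with the knockdown libraries left of the control libraries, for 11 families. Pfkp and Slc16a3 take the larger part of their families in the 3 knockdown libraries and a smaller part in the 3 control libraries, while Eno1, Aldoa and Pgam1 dominate in all 6.

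Each family total summed only genes from the list of 37. These totals were higher in the knockdown in all 11 families, also where single isoforms fell (two-sided exact permutation p = 0.1 each, the smallest possible). Among all single features, 49.2% had every knockdown library above every control library. The ratio of the mean total in the knockdown to that in the controls was 2.07 for hexokinases, 2.06 for lactate transporters, 2.05 for glucose transporters and 2.01 for phosphoglycerate mutases. It was 1.80 for lactate dehydrogenases, 1.66 for phosphofructokinases, 1.57 for enolases, 1.54 for aldolases and 1.43 for phosphoglucomutases. The 4 other glucose transporter genes examined, outside these totals, summed to 15.9 FPKM in the knockdown and 25.7 FPKM in the controls. Phosphofructokinase transcripts summed to 187 ± 2.82 FPKM in the knockdown and 113 ± 6.27 FPKM in the controls (SD, n = 3 each), and enolase transcripts to 1173 ± 31.9 FPKM in the knockdown and 748 ± 37.1 FPKM in the controls (SD, n = 3 each). The smallest ratios were 1.36 for the phosphorylases and 1.29 for the Pfkfb enzymes. After median-ratio scaling the ratios ran from 1.13 to 1.82, and after quantile normalization from 1.17 to 2.31, with the knockdown above the controls in all 11 families under both scalings, which were added after seeing the data.

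Other genes of the same pathways moved in both directions. Of 66 found in the table, 52 were tested. Of these, 27 rose (51.9%), 14 fell (26.9%) and 11 did not pass, beside 48.4% higher and 32.4% lower of all features. The call rate was 78.8% beside 80.8% of all features, and the median log2 fold change was 0.22. After median-ratio scaling 23 rose and 22 fell, beside 38.8% higher and 41.0% lower of all features. Those with a log2 fold change of at least 1 were 7 that rose and 5 that fell, beside 10.9% and 8.0% of all features.

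Of the other glycogen genes, 11 of 14 tested rose (78.6%), while Phka1, Phkb and Gaa fell (21.4%). Of all features 48.4% were higher and 32.4% lower. The median log2 fold change of these 14 genes was 0.61. Ppp1r3c, a subunit that targets a phosphatase to glycogen, had 21.9, 25.6 and 25.5 FPKM in the knockdown libraries, against 10.3, 11.6 and 11.8 FPKM in the control libraries, a log2 fold change of 1.05 (adjusted p = 5.14e-07). Gyg1, the primer of glycogen synthesis, averaged 194 ± 6.82 FPKM in the knockdown and 102 ± 7.38 FPKM in the controls (SD, n = 3 each), a log2 fold change of 0.92. Gaa, the lysosomal enzyme that degrades glycogen, fell to 49.7 FPKM in the knockdown, against 129.8 FPKM in the controls (log2 fold change -1.37, adjusted p = 9.45e-09). Phka1, a regulatory subunit of phosphorylase kinase in muscle, averaged 2.34 ± 0.116 FPKM in the knockdown and 6.97 ± 0.389 FPKM in the controls (SD, n = 3 each; log2 fold change -1.25, adjusted p = 7.76e-08).

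Fbp2, the muscle fructose bisphosphatase, which opposes phosphofructokinase, had 7.12, 6.80 and 6.66 FPKM in the knockdown libraries, against 0, 0.0197 and 0 FPKM in the control libraries. The knockdown values rest on 340, 325 and 300 reads and the control values on 0, 1 and 0 reads, so no fold is given. Pck2, which makes phosphoenolpyruvate in mitochondria, averaged 17.2 ± 0.154 FPKM in the knockdown and 45.3 ± 3.57 FPKM in the controls (SD, n = 3 each), a log2 fold change of -1.34 (adjusted p = 1.82e-08). Slc2a3, which encodes the high-affinity transporter GLUT3, fell, unlike Slc2a1 and Slc2a4. It averaged 4.70 ± 0.246 FPKM in the knockdown and 12.6 ± 0.859 FPKM in the controls (SD, n = 3 each), a log2 fold change of -1.26 (adjusted p = 6.58e-08).

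Tigar, a phosphatase known to direct sugar into the pentose phosphate pathway, averaged 15.6 ± 0.390 FPKM in the knockdown and 7.004 ± 0.357 FPKM in the controls (SD, n = 3 each), a log2 fold change of 1.06 (adjusted p = 7.46e-08). Of the 6 pentose phosphate genes tested outside the list of 37, Tigar among them, 2 rose, 1 fell and 3 did not pass. Of all features 48.4% were higher and 32.4% lower.

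The side branches of glucose use split by pathway. Both polyol pathway enzymes rose: Akr1b1, aldose reductase, averaged 281 ± 13.5 FPKM in the knockdown and 127 ± 6.22 FPKM in the controls, and Sord, sorbitol dehydrogenase, 64.2 ± 2.42 FPKM in the knockdown and 30.1 ± 1.66 FPKM in the controls (SD, n = 3 each; log2 fold changes 1.13 and 1.07, adjusted p = 1.94e-08 and 3.78e-08). In the hexosamine pathway, which feeds protein glycosylation, Gfpt1, Gfpt2, Pgm3 and Uap1 fell, and Gnpnat1 had a log2 fold change of -0.17 that did not pass. Gfpt2, an isoform of the rate-limiting enzyme of that pathway, averaged 12.9 ± 1.88 FPKM in the knockdown and 57.0 ± 0.808 FPKM in the controls (SD, n = 3 each), a log2 fold change of -2.07 (adjusted p = 8.98e-09).

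Of 12 regulators 6 rose, 3 fell and 3 did not pass; 5 rose and 5 fell once median-ratio scaling was applied. Mlxipl, which encodes the glucose-responsive transcription factor ChREBP, had 10.9, 13.1 and 12.1 FPKM in the knockdown libraries, against 0.375, 0.384 and 0.304 FPKM in the control libraries, a log2 fold change of 3.26 (SE 0.08, adjusted p = 3.46e-10). Egln3, an oxygen-sensing prolyl hydroxylase that is itself a HIF target, averaged 72.4 ± 1.30 FPKM in the knockdown and 18.8 ± 3.85 FPKM in the controls (SD, n = 3 each), a log2 fold change of 1.91 (adjusted p = 1.45e-07). Hif1a, which encodes the oxygen-regulated HIF subunit, averaged 37.1 ± 2.21 FPKM in the knockdown and 38.1 ± 2.40 FPKM in the controls (SD, n = 3 each). It did not pass on the deposited scale (adjusted p = 0.584 by limma), and its values under the other scalings are not given here. The factor is controlled largely through protein stability, which RNA does not show. The 12 HIF targets outside the pathway lists did not share one direction: 5 rose (41.7%) and 7 fell (58.3%), beside 48.4% higher and 32.4% lower of all features. Their median log2 fold change was -0.64. Ca9, a carbonic anhydrase, averaged 0.625 ± 0.0965 FPKM in the knockdown and 4.50 ± 0.413 FPKM in the controls (SD, n = 3 each), and P4ha1, a collagen prolyl hydroxylase subunit, averaged 47.2 ± 2.58 FPKM in the knockdown and 120.0 ± 6.70 FPKM in the controls (SD, n = 3 each). Pdk1, a kinase that keeps pyruvate out of the mitochondria, averaged 3.99 ± 0.0796 FPKM in the knockdown and 10.9 ± 1.62 FPKM in the controls (SD, n = 3 each). These 3 genes fell, with log2 fold changes of -1.76, -1.33 and -1.25 (largest adjusted p = 8.03e-07).

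**Figure D4:**
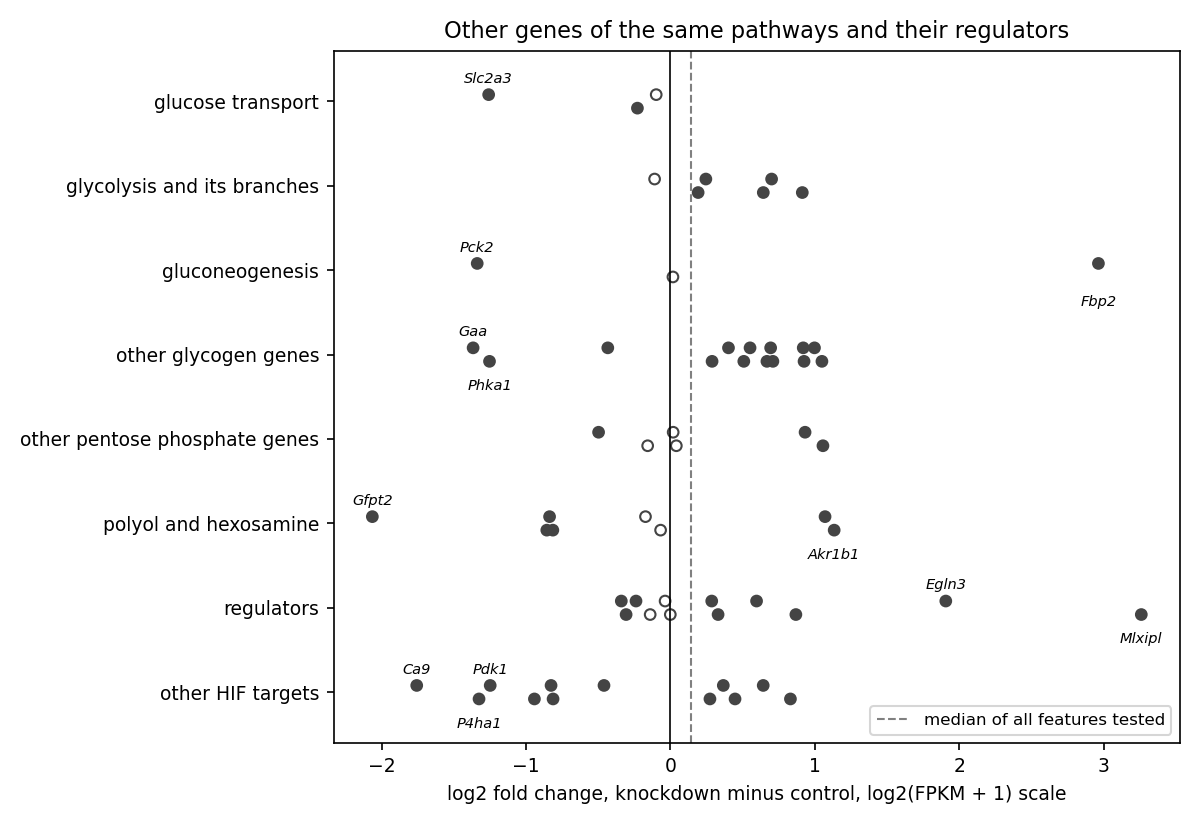
Log2 fold change (knockdown minus control, log2(FPKM + 1)) of other genes of the same pathways, regulators and other HIF targets, 1 row per list; each point is a gene, filled points have an adjusted p under 0.05 by limma, and the dashed line is the median of all features (0.14). Most glycogen genes lie right of the line, hexosamine genes and 7 of 12 other HIF targets lie left of it, and Mlxipl and Fbp2 lie farthest right.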

How the data were processed

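The values are FPKM per gene symbol as the authors deposited them, unpooled, in 6 columns that each hold 1 library, per the file headers. Of the tools, fastp, HISAT2 and HTSeq are listed in the submitters' processing notes, with no version. Not given in the sources used here are the genome build, annotation, strand setting and treatment of multi-mapping reads. Reads of Gapdh, Ldha, Pgk1, Eno1, Tpi1, Aldoa and Pgam1, which have processed pseudogenes in rodents, could therefore be shared with those copies. By RefSeq (GRCr8), 14 of the 37 genes overlap another gene and 7 overlap a protein-coding one. The FPKM values were whole multiples of 1 read for all 22634 features above 0 (tolerance 1e-05 reads, wider for large multiples), which gave the depths and reads quoted.

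The treatment label set the groups. All features that averaged 1 FPKM or more were fitted on log2(FPKM + 1) with limma 3.58.1 (lmFit, eBayes with trend) in R 4.3.3, two-sided, with Benjamini-Hochberg adjustment over 11975 features and a threshold of 0.05. FPKM are not counts, so no count model was run. The fit was tested on data simulated for this comparison. With 11723 features tested and 50 changed at each of 1.5, 2, 4 and 0.5-fold, 100% of each were recovered and 16 unchanged features were called. The spread between simulated libraries was assumed, and all other features had equal means in both groups. In the real data 80.8% of features passed, so the simulation cannot show how the fit or the scaling behaves when most features differ. Shares and totals were compared by two-sided exact permutation tests over libraries. The pathway lists, markers and members were chosen with earlier results of these data known. Genes named with the value in every library are those with a log2 fold change of at least 1 in either direction, those that fell or did not pass, the most abundant of each family, and Slc2a1, Slc2a4, Hk1, Hk2, Pkm, Ldha, Ldhb and Gapdh. Of other pathway genes, those past a log2 fold change of 1 are named, and some genes are not reported here; any other gene named was chosen after its values were seen. The RefSeq symbol Ca9 replaced the older Car9. Alternatives were a pseudocount of 0.1, no filter, a mean of at least 5 FPKM, median-ratio scaling, quantile normalization, limma without the trend, the replicate number as a block, and each library left out in turn. Python 3.11.15, scipy 1.17.1, pandas 2.3.3, numpy 2.4.6 and matplotlib 3.10.9 served for the remaining steps.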

Additional observations from a re-analysis of the deposited data

How the results depend on the processing

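Across 13 alternatives, 28 of the 36 genes tested had the same call and direction in every fit they entered, and 8 (Gpi, Pfkl, Pgk1, Pgam2, Pkm, Slc16a1, Gys1 and Pygb) changed in at least 1. Of 465 comparisons of single genes, 437 had the same call and direction, 25 lost the call, 2 gained it and 1 reversed: Pkm after median-ratio scaling, with a log2 fold change of -0.013. The count of the 36 that rose was 21 to 25 over all alternatives and that of those that fell 7 to 11. Leaving out each library in turn gave 24 to 25 that rose and 7 to 9 that fell, and 5572 to 5657 features higher and 3703 to 3807 lower over the whole table. Of the other pathway genes, 22 fell after median-ratio scaling, against 14 on the deposited scale; the cause was not tested.

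The replicate numbers did not pair the libraries: same-numbered libraries deviated from their group means with correlations of -0.003, 0.068 and -0.071, and the highest correlation, 0.146, was between knockdown replicate 1 and control replicate 3. With the replicate number as a block, 5750 features were higher and 3824 lower, and 25 of the 36 genes rose and 8 fell; Gys1 (adjusted p = 0.0599) and Slc16a1 (adjusted p = 0.0527) did not pass. A mean of at least 5 FPKM left Pgam2, Pfkfb2 and Pfkfb4 out of the test. Low values rest on few reads, and 3 libraries a group cannot give a permutation p below 0.1.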
